A study of Danio rerio with 6 samples.

Results

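The genes described here are 10 members of the Notch signalling pathway in zebrafish: the Delta ligand genes dla, dlb and dld, the receptor genes notch1a, notch1b and notch3, and the transcriptional repressor genes her4.1, her6, her9 and her12. They were chosen by gene name in the deposited annotation, and all 10 were found among the 22350 genes of the count table. Trunk RNA was sequenced from AB wild-type larvae that were 5 days old when the cord was fully transected at the anal pore. From 6 h later, and with fresh solution daily, IWR-1 larvae swam in 35 µM of that Wnt antagonist dissolved in 0.25% DMSO, and DMSO larvae in the vehicle at the same 0.25%. Both groups were injured under Tricaine, fed rotifers, and sampled 3 days after injury, when 8 days old. IWR-1 is a small molecule that keeps Axin, a brake on the Wnt pathway, from being degraded. Each sample was about 1 mm of trunk around the lesion pooled from 20 animals, with 3 biological replicates per group, so every value is an average over animals and over cord, muscle, skin, notochord and connective tissue. The drug was given to the whole larva in its water, and no uninjured samples were analysed here.

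Notch signalling passes between touching cells. A Delta or Jagged ligand on one cell binds a Notch receptor on its neighbour, the receptor is cut by ADAM proteases and then by the gamma-secretase complex, and the freed intracellular part enters the nucleus and acts with the DNA-binding protein Rbpj. Among its targets are her and hey genes, whose products repress proneural genes such as those of the ascl and neurog families. In the spinal cord the pathway is known for keeping ependymo-radial glia, the progenitor cells that line the central canal, from becoming neurons, and in vessels it acts in endothelium and in mural cells.

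With IWR-1, no member passed the test: 0 of 9 tested members had a Benjamini-Hochberg adjusted p below 0.05 in edgeR's quasi-likelihood test over 19562 genes, where 7.47% of all tested genes were called. At an unadjusted p below 0.05 there were 4 of 9 (notch3, her6, her9 and her12), against 24.1% of all tested genes. Among other tools, DESeq2 called 1 member (notch3), in a fit that called 7.96% of genes, and limma voom with sample weights called 2 (notch3 and her9), in a fit that called 22.8%. Of 61 other tested genes of the pathway edgeR called 4, where 7.47% of all tested genes were called. The ligand gene dlc and the ubiquitin ligase gene itchb rose, and the ligand gene jag1b and the glycosyltransferase gene lfng fell. In 6 of 9 tested members the CPM ranges of the groups were separate, 2 higher and 4 lower with IWR-1; over all tested genes this held for 29.8% (14.2% higher, 15.6% lower). The median log2 fold change was -0.17 over the tested members and -0.01 over all tested genes.

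The 6 libraries held 11014963 to 15219664 counts. The treatment groups separated on principal component 1 (55.8% of variance). DMSO replicate 2 was the most extreme library on component 1, at 60.1 against 34.7 and 19 for DMSO replicates 1 and 3. It was also the most extreme on component 2 (21.6%). Muscle genes summed to 104300 to 121050 CPM (counts per 1e6 counted reads) with IWR-1 and 106510 to 108790 CPM with DMSO. The marker genes of ependymo-radial glia, including gfap and sox2, summed to 1323 to 1439 CPM with IWR-1 and 1250 to 1607 CPM with DMSO. The largest term was gfap, at 665.5 to 732 CPM with IWR-1 and 596 to 912 CPM with DMSO. Of the 14 genes, 5 had groups that did not overlap, 2 higher and 3 lower with IWR-1, against 29.8% of all tested genes. The marker genes of neurons summed to 519 to 594 CPM with IWR-1 and 534 to 582.5 CPM with DMSO. Of these 16 genes, 5 had a log2 fold change above 0 and 11 below 0, with a median of -0.17. In 3 the groups did not overlap, 1 higher and 2 lower with IWR-1, against the same 29.8%. edgeR called 0 of the 16, where 7.47% of all tested genes were called. The count table holds no gene with fewer than 6 counts in its highest library, so no marker gene in it could be at 0 in all 6 libraries. Some listed markers were absent from it: the 9 gut symbols gave 7 gene IDs. In such bulk tissue, fewer cells of a type and less RNA per cell cannot be told apart. CPM here are scaled by the trimmed mean of M values (TMM) and are not divided by transcript length, so levels are compared between groups for 1 gene and not between genes.

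Of the Delta ligand genes, dla (chromosome 1, 54013457 to 54026352, GRCz11), which is expressed in newly forming neurons, had 15.21, 15.6 and 14.9 CPM in IWR-1 replicates 1, 2 and 3, against 12.9, 13.3 and 14.1 CPM in DMSO replicates 1, 2 and 3. The groups did not overlap, with the IWR-1 libraries above. The means were 15.24 ± 0.38 CPM with IWR-1 and 13.4 ± 0.64 CPM with DMSO (SD, n = 3 each), a log2 fold change of 0.18 ± 0.15 (SE) with an edgeR adjusted p of 0.484. An antisense gene, AL929114.1, overlaps dla on the other strand. It is absent from the count table, so its level could not be analysed.

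dlb (chromosome 5, 36693859 to 36701760), another Delta gene of differentiating neurons, had 13.0, 11.8 and 12.9 CPM with IWR-1, against 14.8, 15.5 and 12.1 CPM with DMSO. Its groups overlapped through DMSO replicate 3, and the log2 fold change was -0.17 ± 0.16 (SE; edgeR adjusted p = 0.569). It was -0.088 without DMSO replicate 2 and -0.27 without DMSO replicate 3. dld (chromosome 13, 6075572 to 6081803), which acts in somite formation and neurogenesis, had 14.3, 11.6 and 12.8 CPM with IWR-1 and 11.3, 14.0 and 11.9 CPM with DMSO. The ranges of the groups overlapped, and the log2 fold change was 0.06 ± 0.17 (SE; edgeR adjusted p = 0.868). The 95% intervals of the log2 fold change were -0.14 to 0.51 for dla, -0.53 to 0.19 for dlb and -0.31 to 0.42 for dld, so with all 6 libraries a 1.5-fold change in either direction (0.585 on the log2 scale) lay outside each of them.

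Of the receptor genes, notch3 (chromosome 3, 53526025 to 53559581), a receptor known in radial glia and in the mural cells of vessels, showed the smallest p of all members. It had 164, 159 and 149 CPM in the IWR-1 libraries, against 228, 239 and 198 CPM in the DMSO libraries. All 3 IWR-1 values lay below the lowest DMSO value. The means were 157 ± 7.48 CPM with IWR-1 and 221 ± 21.2 CPM with DMSO (SD, n = 3 each). The log2 fold change was -0.49 ± 0.14 (SE; 95% interval -0.79 to -0.19) with an edgeR adjusted p of 0.0533, just short of the threshold.

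Whether notch3 was called depended on the fit. With the replicate number as a block the edgeR adjusted p was 0.0111, in a fit that called 17.8% of all genes, and within replicates 1, 2 and 3 the log2 ratio of IWR-1 over DMSO was -0.48, -0.58 and -0.41. DESeq2 gave an adjusted p of 0.0231, and the authors' deposited table lists 0.0222 with a log2 fold change of -0.47. The unadjusted p was 0.00142 both in that table and in the DESeq2 fit here, so these are not separate results. Leaving out DMSO replicate 3 gave an edgeR adjusted p of 0.0301 (10.7% of genes called), leaving out mitochondrial and the 10 most abundant genes gave 0.0486 (7.62% called). Leaving out DMSO replicate 2, the most extreme library on component 2, gave 0.0574, and over all alternatives the adjusted p ran from 0.00232 to 0.245. The log2 fold change itself stayed between -0.57 and -0.43. Genes of mural cells, of which pdgfrb is the best known, summed to 268 to 416 CPM with IWR-1 and 301 to 416 CPM with DMSO. Of these, 0 of 9 were called by edgeR (0 by unadjusted p below 0.05, 0 by DESeq2). limma voom called 2 of the 9, in a fit that called 22.8% of all genes. Of 14 ependymo-radial glia genes, edgeR called 1, where 7.47% of all tested genes were called. An unadjusted p below 0.05 in edgeR was seen for 2, against 24.1% of all. DESeq2 called 1 and limma voom 3, in fits that called 7.96% and 22.8% of genes. The gene called by edgeR was slc1a3b, a glutamate transporter gene, which fell by 0.57 ± 0.14 on the log2 scale (edgeR adjusted p = 0.0366). That p was 0.0561, 0.166 and 0.167 with IWR-1 replicates 1, 2 and 3 left out in turn, and 0.156 with DMSO replicate 1 left out.

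notch1a (chromosome 21, 4766244 to 4849056), a receptor of neural progenitors and somites, had 86.2, 80.6 and 85.4 CPM with IWR-1, against 70.1, 73.5 and 70.8 CPM with DMSO. Here the IWR-1 libraries all lay above the DMSO libraries. The means were 84.1 ± 3.02 CPM with IWR-1 and 71.5 ± 1.76 CPM with DMSO (SD, n = 3 each), and the log2 fold change was 0.23 ± 0.12 (SE; 95% interval -0.04 to 0.50, edgeR adjusted p = 0.272). notch1b (chromosome 5, 65679595 to 65782785), known in endothelium and in the origin of blood stem cells, had 124, 98.0 and 106 CPM with IWR-1 and 105, 84.2 and 107 CPM with DMSO. Its groups overlapped, at a log2 fold change of 0.15 ± 0.15 (SE; edgeR adjusted p = 0.576). It was 0.054 without IWR-1 replicate 1 and 0.056 without DMSO replicate 2. Replicate 2 was the lowest notch1b library in both groups.

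The balance between the receptor genes can be read within each library, where scaling between libraries cancels. The ratio of notch1a counts to notch3 counts was 0.526, 0.506 and 0.572 with IWR-1, against 0.308, 0.308 and 0.358 with DMSO. The mean of this ratio was 0.535 ± 0.034 with IWR-1 and 0.325 ± 0.029 with DMSO (SD, n = 3 each). Its groups had to lie apart, since every IWR-1 library was above every DMSO library in notch1a and below in notch3. The ratio thus adds no support beyond these 2 genes, and edgeR called neither. For notch1b over notch3 the ratio was 0.756, 0.615 and 0.714 with IWR-1 and 0.460, 0.353 and 0.539 with DMSO, also without overlap. For notch1a over notch1b the mean was 0.773 ± 0.068 with IWR-1 and 0.735 ± 0.119 with DMSO, and the groups overlapped. These ratios are a description of chosen genes and were given no test. How often the ratios of other gene pairs lie apart was not computed. The fourth receptor gene, notch2, which is no member, was at a log2 fold change of -0.10 ± 0.13 (SE; edgeR adjusted p = 0.665).

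**Figure D1:**
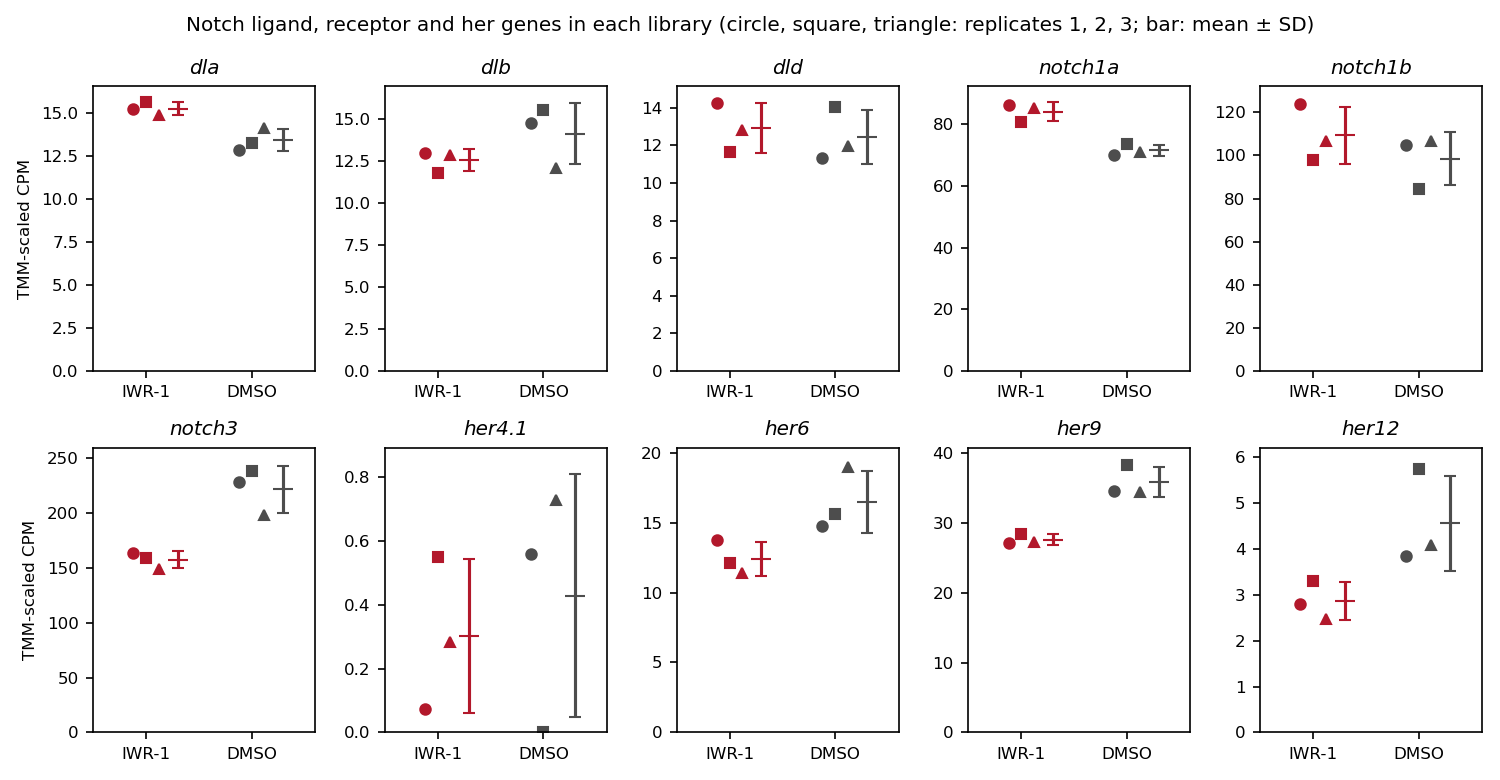
TMM-scaled CPM (y axes, starting at 0) of the 10 genes in each of the 3 IWR-1 (red) and 3 DMSO (grey) libraries; circles, squares and triangles are replicates 1, 2 and 3, and the bar beside each group is its mean with SD. The groups lie apart for dla, notch1a, notch3, her6, her9 and her12 and overlap for dlb, dld, notch1b and her4.1.

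The her genes encode basic helix-loop-helix repressors. her6 and her9 are relatives of mammalian Hes1, and her4.1 and her12 of mammalian Hes5. her9 (chromosome 23, 23399520 to 23401305) had 27.0, 28.4 and 27.2 CPM with IWR-1, against 34.6, 38.2 and 34.5 CPM with DMSO. The groups were well apart, with means of 27.6 ± 0.77 CPM with IWR-1 and 35.8 ± 2.15 CPM with DMSO (SD, n = 3 each). The log2 fold change was -0.38 ± 0.13 (SE; 95% interval -0.66 to -0.09) at an edgeR adjusted p of 0.111.

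her6 (chromosome 6, 36551083 to 36552844) had 13.8, 12.1 and 11.4 CPM with IWR-1, against 14.8, 15.6 and 19.0 CPM with DMSO. The highest IWR-1 library was close to the lowest DMSO library, without overlap. The log2 fold change was -0.41 ± 0.17 (SE; edgeR adjusted p = 0.167), and the log2 ratios within replicates 1, 2 and 3 were -0.10, -0.37 and -0.74. her12 (chromosome 23, 21444922 to 21446985) was low, at 2.80, 3.30 and 2.48 CPM (39, 42 and 35 counts) with IWR-1, against 3.83, 5.75 and 4.09 CPM (48, 61 and 62 counts) with DMSO. The groups did not overlap, and DMSO replicate 2 was the highest library. The log2 fold change was -0.66 ± 0.24 (SE; 95% interval -1.203 to -0.13, edgeR adjusted p = 0.128), and it was -0.47 without DMSO replicate 2. With the replicate block the edgeR adjusted p was 0.0578 for her9, 0.101 for her6 and 0.0538 for her12; over all alternatives these ran from 0.0341 to 0.343, 0.0665 to 0.462 and 0.0538 to 0.391.

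her4.1 (chromosome 23, 21452557 to 21453614) had 1, 7 and 4 counts with IWR-1, against 7, 0 and 11 counts with DMSO, and was removed by the filter on low counts. Summed over each group this was 12 counts with IWR-1 and 18 with DMSO, a ratio of rates of 0.627 with a 95% exact binomial interval of 0.276 to 1.38, which covers counting error only. No difference was detectable at this depth. her4.1 lies 5571 bases from her12 in a run of her4 copies on chromosome 23 (21444922 to 21471022, with 5 gene IDs named her4). The copies are near-identical, so reads may be shared or lost among them and the split between copies is uncertain. Summed over the 4 her4 IDs that are in the count table, there were 29, 21 and 20 counts with IWR-1, against 30, 42 and 38 counts with DMSO. Every IWR-1 sum was below every DMSO sum. In CPM these were 2.08, 1.65 and 1.42 with IWR-1 and 2.40, 3.96 and 2.51 with DMSO, a log2 fold change of -0.77 ± 0.30 (SE; edgeR adjusted p = 0.149).

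**Figure D2:**
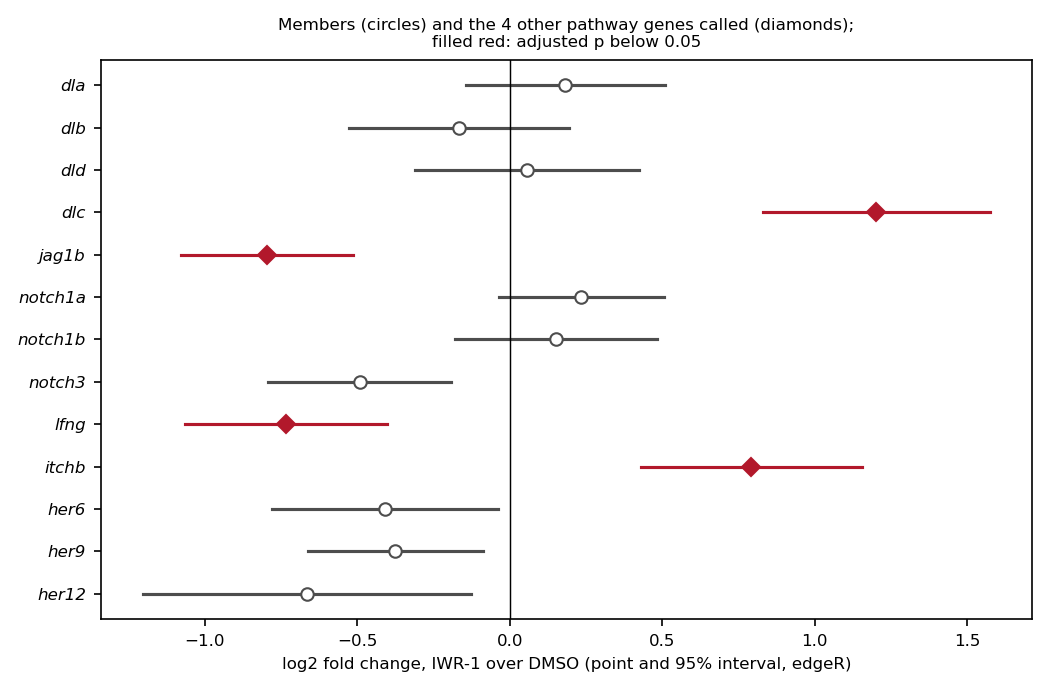
Log2 fold change of IWR-1 over DMSO (x axis; point and 95% interval from edgeR) for the 9 tested members (circles) and the 4 other Notch pathway genes that were called (diamonds), ordered by role from ligands to her genes. Red filled points have an adjusted p below 0.05; the intervals of notch3, her6, her9 and her12 lie below 0 although none of these genes was called.

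The other genes of the pathway were taken from lists by role, 83 symbols in all, of which 74 were in the annotation; they gave 67 gene IDs in the count table and 61 tested genes. edgeR called 4 of 61, 2 higher and 2 lower, where 7.47% of all genes were called (3.88% higher, 3.59% lower). Their median log2 fold change was -0.07. With the replicate block, 9 were called, 3 higher and 6 lower, against 17.8% of all genes.

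Among 8 other ligand genes, edgeR called dlc higher and jag1b lower, where 3.88% of all tested genes were called higher and 3.59% lower. dlc, a Delta gene of somites, vessels and sensory organs, had 27.2, 35.5 and 38.4 CPM with IWR-1, against 13.4, 14.8 and 15.7 CPM with DMSO. The lowest IWR-1 library was well above the highest DMSO library, and the log2 fold change was 1.202 ± 0.17 (SE; edgeR adjusted p = 0.00218). jag1b, a Jagged gene, had 41.4, 39.0 and 40.4 CPM with IWR-1, against 66.0, 75.7 and 68.2 CPM with DMSO. The IWR-1 libraries were tightly grouped below the DMSO libraries, and the log2 fold change was -0.80 ± 0.13 (SE; edgeR adjusted p = 0.00456). dlc and jag1b were called under all 15 alternatives. The 95% interval of dlc began at 0.83, above the highest bound among dla, dlb and dld, which was 0.51.

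Ligand activation and receptor glycosylation gave 1 of 11 called, where 7.47% of all tested genes were called. lfng, a Fringe glycosyltransferase that modifies Notch receptors and so sets which ligands they answer to, had 62.0, 58.2 and 57.9 CPM with IWR-1, against 89.6, 119 and 88.2 CPM with DMSO. The groups were apart, with DMSO replicate 2 the highest, and lfng fell by 0.73 ± 0.15 on the log2 scale (SE; edgeR adjusted p = 0.0151). Of 9 inhibitors and turnover genes, 1 was called, against the same 7.47% of all tested genes. This was itchb, whose mammalian relative Itch is a ubiquitin ligase acting on Notch. It had 39.9, 36.5 and 40.3 CPM with IWR-1, against 26.0, 17.5 and 23.7 CPM with DMSO. All IWR-1 libraries lay above the DMSO libraries, and itchb rose by 0.79 ± 0.16 on the log2 scale (SE; edgeR adjusted p = 0.0165). For lfng the edgeR adjusted p was 0.0813 when IWR-1 replicate 2 was left out and 0.0978 when IWR-1 replicate 3 was; for itchb these were 0.0526 and 0.0910.

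In the remaining lists edgeR called none, where 7.47% of all tested genes were called. DESeq2 called 7.96% and limma voom 22.8% of all genes, and 24.1% had an unadjusted p below 0.05 in edgeR. Of 9 receptor cleavage genes 0 passed (0 also by unadjusted p, by DESeq2 or by limma voom); the smallest p values were those of aph1b, a gamma-secretase subunit (log2 fold change -0.44 ± 0.30 SE, and 0.055 without DMSO replicate 2), and psen2, a presenilin (0.20 ± 0.14). Of 13 genes of the nuclear complex and its co-repressors 0 passed (0 also by DESeq2 or by limma voom, and 1 by unadjusted p below 0.05). The 1 was rbpja, which encodes the DNA-binding partner of the Notch intracellular part, with 25.2, 29.7 and 25.5 CPM with IWR-1, against 30.5, 51.5 and 31.0 CPM with DMSO. The groups did not overlap but the highest IWR-1 and lowest DMSO libraries nearly touched; the log2 fold change was -0.49 ± 0.21 (SE; edgeR adjusted p = 0.176, and 0.0383 with the replicate block, over a range of 0.0383 to 0.464), and it was -0.19 with DMSO replicate 2 left out.

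The list of other her, hes and hey genes held 10 tested genes, among them bhlhe40 and bhlhe41, which carry none of these names. Of the 10, 0 passed in edgeR (4 by unadjusted p below 0.05, 0 by DESeq2 and 4 by limma voom). bhlhe41 was 1 of the 4 both times. Over all tested genes, 24.1% had an unadjusted p below 0.05 in edgeR, and limma voom called 22.8%. hey1, a Notch target known in vessels and heart, had 26.6, 30.2 and 29.5 CPM with IWR-1, against 37.2, 41.5 and 40.9 CPM with DMSO. The groups were clearly apart, at a log2 fold change of -0.47 ± 0.13 (SE; edgeR adjusted p = 0.0565, and 0.0187 with the replicate block, over a range of 0.0187 to 0.203). her8.2, another her gene, had 3.30, 4.48 and 4.53 CPM with IWR-1, against 2.56, 1.98 and 2.24 CPM with DMSO. It ran the other way, with the IWR-1 libraries above, at a log2 fold change of 0.85 ± 0.24 (SE; edgeR adjusted p = 0.0587, and 0.0289 with the replicate block, over a range of 0.0132 to 0.241). Endothelial marker genes summed to 135 to 177 CPM with IWR-1 and 153 to 199 CPM with DMSO; of 16, the cadherin gene cdh5 fell by 0.74 ± 0.17 on the log2 scale (edgeR adjusted p = 0.0269; 0.0982 and 0.147 when IWR-1 replicate 2 or 3 was left out, and 0.116 when DMSO replicate 1 was) and the transcription factor gene sox7 rose by 0.72 ± 0.20 (edgeR adjusted p = 0.0477; 0.0529 to 0.182 when any 1 library was left out, 0.0674 with DESeq2 and 0.0502 with no filter). Endothelium thus gave 1 of 16 called each way, where 3.88% of all tested genes were called higher and 3.59% lower. The part of endothelium in the hey1 and notch1b values was not tested.

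**Figure D3:**
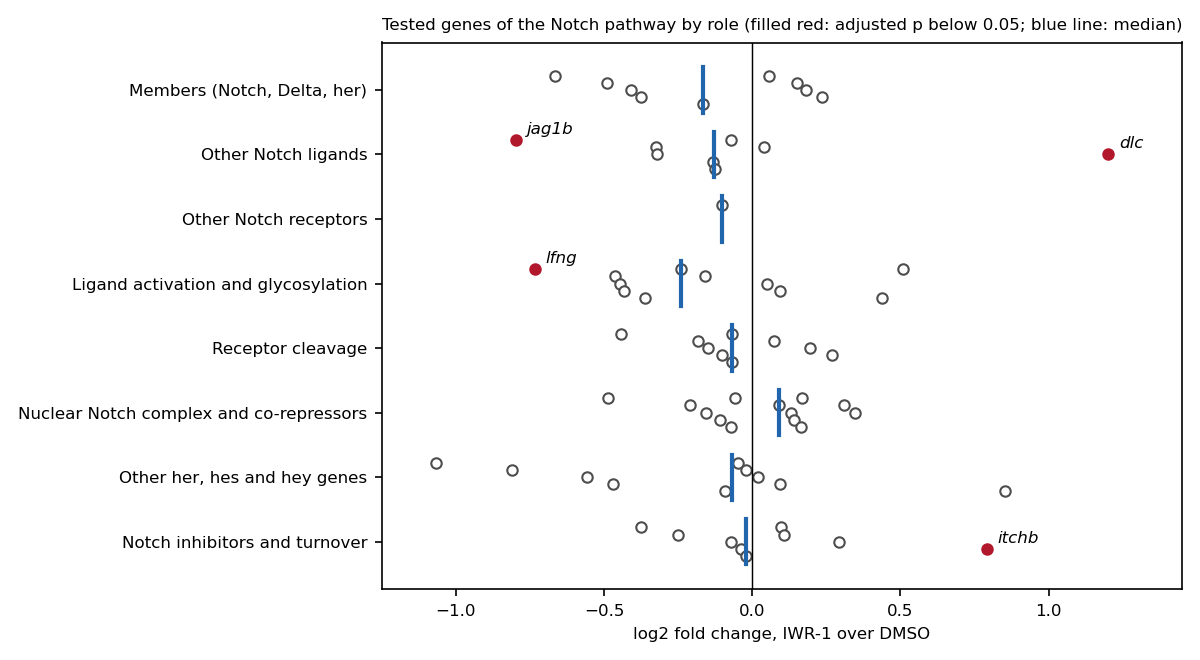
Log2 fold change of IWR-1 over DMSO (x axis) of every tested Notch pathway gene, 1 point a gene, in rows by role; filled red points have an edgeR adjusted p below 0.05 and blue lines are row medians. The called genes dlc, jag1b, lfng and itchb are the only filled points, and the row medians lie between -0.24 and 0.09.

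Proneural genes are the textbook targets of her repressors. edgeR called no her member, and a link between her and proneural values was not tested. Of 10 tested proneural factor genes, edgeR called 1, where 7.47% of all tested genes were called. This gene, ascl1b (ENSDARG00000009702), averaged 24.4 CPM with IWR-1 and 10.2 CPM with DMSO. It rose by 1.26 ± 0.21 on the log2 scale (SE, edgeR adjusted p = 0.00493). A second gene ID with the symbol ascl1b (ENSDARG00000101628), next to it on the same strand of chromosome 7, averaged 1.14 CPM with IWR-1 and 1.17 CPM with DMSO, at a log2 fold change of -0.08 ± 0.41 (SE; edgeR adjusted p = 0.922). Of the 10 tested proneural genes, 8 had a log2 fold change above 0 and 2 below 0, with a median of 0.37. In 4 the groups did not overlap, all higher with IWR-1, against 14.2% of all tested genes. An unadjusted p below 0.05 in edgeR was seen for 3, against 24.1% of all. The list summed to 46.9, 54.1 and 61.4 CPM with IWR-1, against 35.8, 32.02 and 35.0 CPM with DMSO, without overlap. The first ascl1b gene ID made up the largest share of the difference. Markers of leukocytes and of epidermis also summed to separate ranges. Leukocyte genes summed to 312 to 496 CPM with IWR-1 and 244 to 295 CPM with DMSO, with 3 of 9 called higher. Epidermal genes summed to 3173 to 4717 CPM with IWR-1 and 5087 to 6194 CPM with DMSO, with 3 of 10 called lower. Over all tested genes 3.88% were called higher and 3.59% lower. The largest terms of the epidermal sum were krt4 and krt5, named after their values were seen. krt4 averaged 1376.5 CPM with IWR-1 and 2230 CPM with DMSO, and krt5 955 CPM with IWR-1 and 1534 CPM with DMSO. Of the 10 epidermal genes, 6 had a log2 fold change below 0 and 4 above 0. Notochord genes summed to 379 to 560 CPM with IWR-1 and 447 to 555 CPM with DMSO, with 2 of 8 called lower. The log2 fold change was above 0 in 5 of these 8 and below 0 in 3, with a median of 0.07. Gut genes summed to 20.1 to 33.8 CPM with IWR-1 and 11.4 to 20.99 CPM with DMSO, with 1 of 3 called higher. The called gene, agr2, was the largest term of the gut sum, at a mean of 23.5 CPM with IWR-1 and 12.1 CPM with DMSO. The ranges overlapped for the notochord sums and for the gut sums. Lateral line and hair cell genes, from organs where Delta genes are also expressed, summed to 65.6 to 77.1 CPM with IWR-1 and 64.4 to 87.1 CPM with DMSO. These sums overlapped. In 5 of the 9 tested genes the groups did not overlap, 2 higher and 3 lower with IWR-1, against 29.8% of all tested genes. An unadjusted p below 0.05 in edgeR was seen for 6 of the 9, against 24.1% of all. The log2 fold change was above 0 in 4 and below 0 in 5. The 1 gene called was lower, s100s, named after its values were seen (log2 fold change -1.66 ± 0.34 SE, edgeR adjusted p = 0.0151). The part of these cell types in the Notch gene values was not tested.

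The correlations of the members' deviations from the group means ran from -0.907 to 0.946 over 36 pairs. Each rests on 6 libraries with 2 group means removed. Few free values lie behind each r, so the range cannot tell whether the members varied as 1 group. The genes closest to the mean of the standardised members, among 18765 genes with a mean of at least 1 CPM, were nrtn (Pearson's r = 0.990), col19a1 (0.987), larp7 (0.980), CABZ01087197.1 (0.980) and CU138533.2 (0.977). This is a description over 6 libraries in 2 groups, so it mixes the group difference with the spread within groups. The 5 values are the highest of 18765, so their size reflects that selection. The members' mean itself overlapped between groups: IWR-1 replicate 1 was at 0.199, above DMSO replicates 1 (-0.0352) and 3 (0.0724). Genes that follow it closely were thus unlikely to be called, and edgeR called none of the 5 (adjusted p from 0.383 to 0.694).

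**Figure D4:**
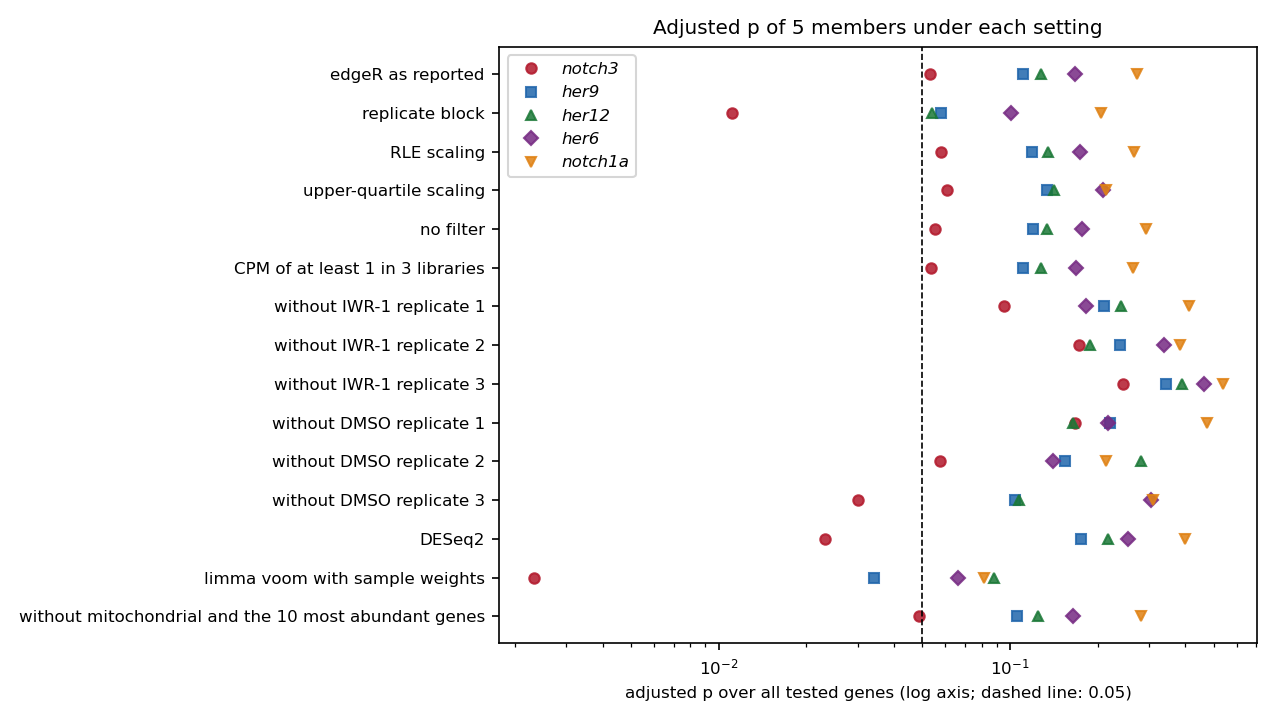
Adjusted p over all tested genes (x axis, log scale; dashed line at 0.05) of the 5 members with the smallest unadjusted p, under edgeR as reported and under 14 alternative settings in rows. notch3 lies left of the line in 5 of the 14, her9 in 1 (limma voom), and her12, her6 and notch1a in none.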

How the data were processed

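RNA was taken with a kit for fixed tissue, and libraries were rRNA-depleted and directional, per the labels' protocols. The submitters' processing notes list cutadapt, FastQC, STAR, featureCounts and build GRCz11; for versions and for whether counting used strand, the answer is not given in the sources used here. The raw counts per gene that the authors deposited were tested here. They also deposited log2 fold changes with p-values, per the file headers, from which only notch3 is quoted. Count columns were matched to samples by the deposited sample sheet, and the deposited annotation gave names and coordinates. The labels call the replicates biological.

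The test was edgeR 4.0.16 (R 4.3.3): filterByExpr, TMM scaling and a robust quasi-likelihood fit of 3 against 3 libraries. The filter removed 2788 genes. Genes with an adjusted p below 0.05 were called. SE is |log2 fold change|/√F, and intervals are at 95%. Alternatives include DESeq2 1.42.0 and limma 3.58.1 voom. Named genes were the members, other pathway genes that were called, the 2 smallest p in lists with none, and the 5 genes most like the members' mean; marker genes are examples. Members and lists were chosen with earlier results of these data known. Libraries of 1 replicate number deviated together (r = 0.293, 0.341 and 0.159 for deviations from group means), so the numbers were treated as pairs in an alternative; what they share is unknown. Replicates differed beyond sampling noise (chi-square per gene at least 8.18). Only the main edgeR fit, without the replicate block, was tested on simulated data.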

Additional observations from a re-analysis of the deposited data

How the results depend on the processing

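No member changed direction under any alternative at a called value; dld, never called, was at -0.02 without IWR-1 replicate 1 and -0.01 without DMSO replicate 1, against 0.06 in all libraries. The count of members called, 0 with edgeR, was 1 with the replicate block, 1 with DESeq2, 2 with limma voom and 1 without mitochondrial and the 10 most abundant genes (each time including notch3), and 0 to 1 when each library was left out. The 4 other pathway genes called, of 61 tested, became 9 with the replicate block, in a fit that called 17.8% of all genes. Among them were hey1, hey2, her8.2, bhlhe41 and rbpja (hey2 and bhlhe41 named after their values were seen). The count was 14 of 61 with limma voom, in a fit that called 22.8% of all genes, and 2 to 5 with a library left out. Over all genes the 1462 called became 3486 with the replicate block and 4452 with limma voom, and 447 to 2117 with a library left out (lowest when IWR-1 replicate 3 was dropped, then IWR-1 replicate 2 at 596 and DMSO replicate 1 at 680). The sample weights of limma voom were 2.90 for DMSO replicate 1 and 0.317 for DMSO replicate 2. In the IWR-1 group they were 0.631 for replicate 1 and 1.83 for replicate 3. The limma voom counts thus lean on DMSO replicate 1 and IWR-1 replicate 3 and are no independent support. With a library left out, notch1b ran from 0.054 (without IWR-1 replicate 1) to 0.23, dlb from -0.27 to -0.088 and dld from -0.02 to 0.15 (the highest value of both without DMSO replicate 2), and aph1b ran from -0.70 to 0.055, the highest value without DMSO replicate 2. The cause of these shifts was not tested. The replicate block changed no other call among the members and named pathway genes than those of notch3, rbpja, hey1, her8.2, hey2 and bhlhe41. Depth limits her4.1, at no more than 11 counts in a library, and its copies.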

Other observations

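Within the groups, the tested members varied together in some pairs. Over the 6 libraries, the deviations from the group mean correlated at r = 0.946 for her9 and her12 and at r = 0.924 for notch1a and dld, and at r = -0.907 for notch1b and her9 (log2 CPM). For notch3 they correlated at r = 0.601 with her9 and r = 0.808 with dlb. These are 36 pairs over 6 libraries that share depth and scaling, given as a description with no test. The named pairs were chosen after their values were seen. DMSO replicate 2, the most extreme library on component 1, was the highest DMSO library for her9, her12, notch3, dlb, notch1a and dld. It was the lowest for notch1b. Correlations without it were not computed, so these values may rest on that library.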
